A study of Mus musculus with 12 samples.

Results

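The comparison of group G3 with group G1 was examined over every gene that the authors listed for it, 28997 genes in all, in RNA of the mouse soleus, a calf muscle in which slow fibres are abundant. The 28997 genes were not chosen for their values and are also those listed for the whole series. The lists of genes by pathway and cell type used below were drawn up with earlier results of these data known. The labels describe 12 mice in 4 groups of 3. The groups carried Cdh5cre-WT or Cdh5Cre-NOX1CKO, so that every mouse is labelled with the Cdh5-driven Cre, which acts in endothelial cells, and were kept on a chow diet or a high fat diet for 8 weeks. Strain and age are not given in the sources used here. The authors coded the groups G1 to G4, and the labels do not say which code stands for which genotype and diet, so the codes are kept and no value below is assigned to either factor. G3 and G1 hold 3 libraries each, and the deposited tables hold values per comparison and none per library, so the value in each mouse, a mean with its SD and any library that stood apart could not be seen. P-values therefore stand as the authors gave them.

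Fatty acids are a main fuel of slow muscle fibres. They are taken up and bound in the cytosol, activated to acyl-CoA, carried into mitochondria by the carnitine shuttle and shortened in the beta-oxidation spiral, while auxiliary enzymes handle double bonds and peroxisomes take the longest chains. Many of these genes are known targets of the PPAR nuclear receptors, which bind fatty acids, and genes of sterol export and of fatty acid synthesis are known targets of the LXR receptors, which bind oxysterols.

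The authors' deposited totals came to a mean of 24905255 per library. Below 2 times the lowest total they took 12 distinct values, 0.801 to 1.27, as scaled single reads from 12 libraries would give, so they are read here as normalised reads summed over the 12 libraries. A total of at least 100, a mean of 8.33 normalised reads per library, was reached by 15494 genes. Nox1, the targeted gene, had a total of 25.2 and modelled levels of 1.93 normalised reads per library in G1 and 1.65 in G3, so that a difference was not detectable at this depth. Cdh5, the endothelial cadherin whose promoter drives the Cre, stood at 4184 in G1 and 4508 in G3, with a log2 fold change of 0.11 (adjusted p 1.0) in the authors' deposited table. A modelled level, here and below, is the total divided among the 4 groups according to the deposited fold changes, in normalised reads per library, and is not the value of a library. Each standard error (SE) is the one implied by the deposited log2 and p-value, and a gene is called where the authors' adjusted p was under 0.05. In bulk muscle, fewer cells of a type and less RNA per cell cannot be told apart.

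G3 differed from G1 in few genes, and most called genes were higher in G3. Of the 28997 genes 61 were called (0.21%), 49 higher (0.316% of those with a total of at least 100) and 12 lower (0.0774%). All 61 had a total of at least 100, and 57 were protein coding, 2 were processed pseudogenes and 2 were long intergenic noncoding RNAs. At an unadjusted p under 0.05 stood 449 genes on the higher side (2.9%) and 423 on the lower side (2.73%). The counts within lists below are to be read beside these shares. Over all 15494 genes the median log2 was 0.00, 7762 were positive, and the middle 90% lay between -0.42 and 0.41, with a median SE of 0.18.

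Most called rises were small, while the falls reached further. A log2 of 1 or more was seen in 5 rises, and one of -1 or less in 5 falls. The 49 rises ran from 0.22 to 1.26 on the log2 scale with a median of 0.52, and 31 of them were under 1.5-fold. The 12 falls ran from -0.21 to -2.35 with a median of -0.70, and 5 were under 1.5-fold. The 5 called genes with the smallest p-values were Decr1, Hadhb, its copy Hadhb-ps, Chrna2 and Ephx2, all higher in G3. Of the 61, 37 belonged to at least 1 of 62 lists of pathway or cell type genes and 24 to none, while 39 lists had no called member.

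**Figure D1:**
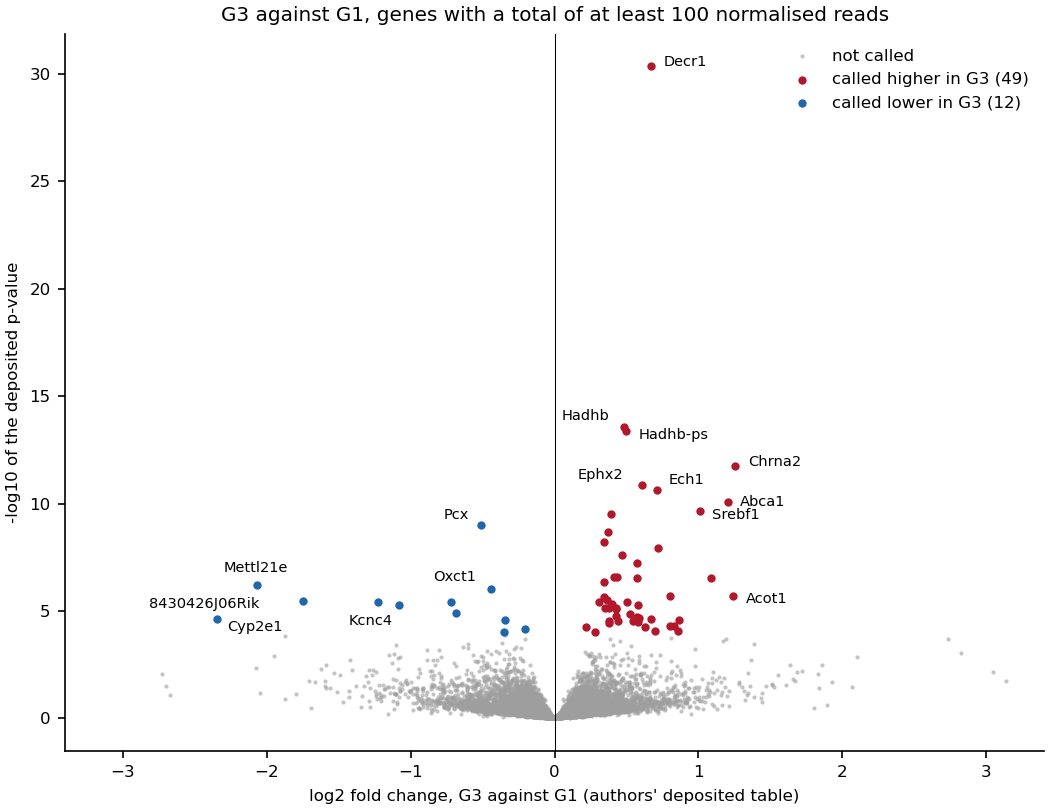
Log2 fold change of G3 against G1 (x axis) and -log10 of the deposited p-value (y axis) for 15494 genes, each a point, that reached a total of 100. The 49 genes called higher (red) and 12 called lower (blue) are few beside the rest, and Decr1 stands far above every other gene.

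Genes of fatty acid oxidation, pooled here over 4 lists drawn up with earlier results of these data known, held many of the rises. Of the 49 genes called higher, 16 (32.7%) belonged to 1 of 4 lists, for the mitochondrial spiral, the auxiliary enzymes, the carnitine shuttle and peroxisomal oxidation. Over all genes with a total of at least 100, 0.316% rose and 2.9% had an unadjusted p under 0.05 on the higher side. Among the 41 members of these lists with such a total, 24 had such a p on the higher side. Of these 41 members, 37 were positive, 16 rose and none was called lower. Their median log2 was 0.24, against 0.00 over all genes. Their summed modelled level was 197744 in G1 and 245133 in G3.

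In the mitochondrial spiral, all 14 members were positive and 9 rose, with a median log2 of 0.32 and values from 0.06 to 0.48. The acyl-CoA dehydrogenases, which take the first step for each chain length, all rose. Acadvl, for very long chains, went from a modelled level of 13073 in G1 to 16555 in G3, a log2 of 0.34 (SE 0.06, adjusted p 1.44e-05) in the authors' deposited table. Acadl, for long chains, rose by 0.37, Acads, for short chains, by 0.38 and Acadm, for medium chains, by 0.28 in the authors' deposited table. Per kilobase of transcript, Acadl stood at 6985 in G1 and 9050.5 in G3, close to Acadm at 6979 and 8491, while Acads was lower at 1108 and 1442.

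Hadha and Hadhb, the subunits of the trifunctional protein that carries out the later steps on long chains, rose together. Hadha went from 20781 to 26322, a log2 of 0.34 (SE 0.07) in the authors' deposited table. Hadhb went from 8801 to 12307, a log2 of 0.48 (SE 0.06, adjusted p 3.78e-10) in the authors' deposited table. The listed pseudogene Hadhb-ps rose by 0.50 there, and reads of the gene and this near-identical copy may be split between them. The summed level of both was 18965 in G1 and 26679 in G3, a log2 of 0.49, so that the gene and the sum gave nearly the same value. Hadh, the dehydrogenase for shorter chains, rose by 0.39, the thiolase Acaa2, which releases acetyl-CoA, by 0.42, and Etfdh, which passes the electrons on to ubiquinone, by 0.31 in the authors' deposited table. The spiral genes that were not called had smaller values, and Acat1, a thiolase also used in ketone breakdown, had 0.24 (adjusted p 0.322), Eci1 had 0.23, and the electron transfer flavoprotein subunits Etfa and Etfb had 0.13 and 0.10 in the authors' deposited table.

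Hadha and Hadhb lie head to head on chromosome 5 (GRCm38, Hadha at chr5:30118304-30155162 on the minus strand and Hadhb at chr5:30155248-30184593 on the plus strand), with 85 bases between their annotated starts. These bases are printed because both genes of the pair rose, from the RefSeq promoter table on GRCm38.p6, plus strand, chr5:30155163-30155247, with each CG in capitals.
Hadha-Hadhb: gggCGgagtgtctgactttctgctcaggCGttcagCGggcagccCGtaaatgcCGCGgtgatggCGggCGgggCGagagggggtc
The stretch holds 9 CG pairs and is 69.4% G or C, against a median of 59.6% over the windows of the 250 bases before the start of genes with a total of at least 100.

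The auxiliary enzymes for unsaturated chains included the clearest rise of the comparison. Decr1 (chr4:15917240-15945507, GRCm38), the mitochondrial 2,4-dienoyl-CoA reductase, went from 4109 in G1 to 6548 in G3, which is 1.59-fold. Its log2 was 0.67 (SE 0.06, adjusted p 1.26e-26) in the authors' deposited table. Ech1, which shifts double bonds into place, went from 7906 to 12923, a log2 of 0.71 (SE 0.11) there. Eci2, an enoyl-CoA isomerase, rose by 0.35 in the authors' deposited table. The other 3 of the 6 members were not called, and Hsd17b4, a peroxisomal multifunctional enzyme, had 0.27 (adjusted p 0.428), the peroxisomal reductase Decr2 0.12 and Hsd17b10 -0.04 in the authors' deposited table.

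All 6 genes of the carnitine shuttle were positive, with a median of 0.29, and 2 rose. Slc25a20, the carnitine and acylcarnitine carrier of the inner membrane, went from 3072 to 3954, a log2 of 0.36 (SE 0.08) in the authors' deposited table. Cpt2, which remakes acyl-CoA inside the mitochondrion, rose by 0.35 there. Cpt1b, the muscle form of the entry enzyme, had 0.24 (SE 0.07, adjusted p 0.328) in the authors' deposited table, and Cpt1a, the liver form, had 0.46 (SE 0.19, adjusted p 1.0). The value of Cpt1a was above those of the called Slc25a20 and Cpt2, with a wider SE.

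In the peroxisomal oxidation list, 12 of 15 measured members were positive and 2 rose, with a median of 0.07. Pex11a, which takes part in peroxisome division, rose by 0.58 in the authors' deposited table. Other called genes of peroxisomal proteins fell outside this list. Cat, catalase, went from 6614 to 8993, a log2 of 0.44, and Ephx2, the soluble epoxide hydrolase, from 1974 to 3007, a log2 of 0.61 (adjusted p 7.88e-08), both in the authors' deposited table. Hsdl2, a dehydrogenase-like protein of peroxisomes and mitochondria, rose by 0.43 there.

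Genes that bind, activate or release fatty acyl chains rose in part. Fabp3, the fatty acid binding protein of heart and slow muscle, went from 30889 to 46397, a log2 of 0.59 (SE 0.14, adjusted p 0.0148) in the authors' deposited table. Its pseudogene Fabp3-ps1 rose by 0.58 there, and the summed level of both rose by the same 0.58. Fabp3 had 56375 normalised reads per kilobase in G3, above every other called gene with a transcript length, against 37532 in G1. Acsl1, the main acyl-CoA synthetase of muscle, rose by 0.43, and Dbi, the acyl-CoA binding protein, by 0.58 in the authors' deposited table. The uptake protein Cd36 had 0.32 (adjusted p 0.346) and the transporter Slc27a1 had 0.23 there, and neither was called. The 10 members of the uptake list had a median of 0.09 and the 10 synthetases one of 0.19.

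The thioesterases Acot1, which is cytosolic, and Acot2, which is mitochondrial, release the free fatty acid from acyl-CoA and lie 15616 bases apart on chromosome 12. Acot1 went from 165 to 391, a log2 of 1.24 (SE 0.26, adjusted p 0.0025), and Acot2 from 1321 to 2304, a log2 of 0.80 (SE 0.20, adjusted p 0.0263), in the authors' deposited table. The genes are near-identical, so reads may be split between them, and their summed level gave a log2 of 0.86. Acot4, of the same gene cluster, had 1.09 with an SE of 0.44 and was not called. Of the 10 measured thioesterases 2 rose, and the median of 0.10 was small.

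Targets of the PPAR receptors overlap with these lists. Of 21 measured, 19 were positive, 7 rose and 11 had an unadjusted p under 0.05 on the higher side, with a median of 0.34. Acot1, Acot2, Fabp3, Slc25a20 and Hadha were among the called members, and so was Cidea, a protein of lipid droplets, which went from 130 to 230 with a log2 of 0.83 (SE 0.20) in the authors' deposited table. The lipid droplet coat genes Plin2 and Plin5 had 0.40 (adjusted p 0.353) and 0.42 (adjusted p 1.0) there, while Plin3 had -0.48. None of the 12 receptors and cofactors in the list of PPAR and RXR genes was called, and 1 had an unadjusted p under 0.05, with a median of -0.02 and values between -0.44 and 0.20. Pparg, a receptor itself, had 0.20 (SE 0.21) and Rxra -0.18 (SE 0.10) in the authors' deposited table.

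**Figure D2:**
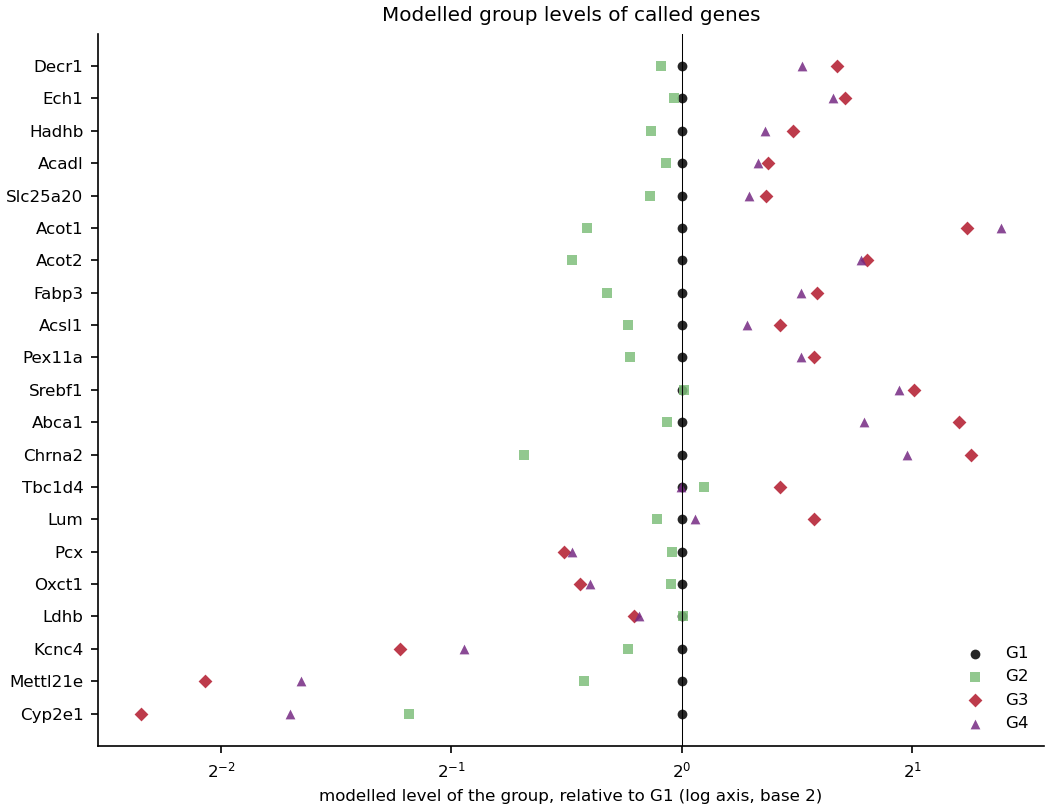
Modelled level of each coded group relative to G1 (x axis, log scale of base 2) for 21 called genes (y axis), with 1 marker per group and no error bar, since the tables hold no value per library. G3 (red diamonds) lies right of G1 from Decr1 down to Lum and left of it from Pcx to Cyp2e1, and the G4 marker of Tbc1d4 lies on that of G1.

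The 250 bases before the annotated start were searched on both strands for a direct repeat with 1 base between its repeats (DR1), the arrangement PPAR and RXR are known to bind, spelled AGGNCANAGGNCA, with at most 1 mismatch. Promoter sequences of RefSeq on GRCm38.p6 were held for 33 of the 49 genes called higher and for 10 of the 12 called lower. A match was found in 3 of the 33 (9.09%), in 0 of the 10, and in 4.17% of 10546 genes that had a sequence and a total of at least 100. The 3 were Cat, Hadh and Tbc1d4, and their windows are printed in the direction of the gene, with the match in capitals, to show where it lies. A direct repeat with 4 bases between its repeats (DR4), the arrangement of LXR and RXR, spelled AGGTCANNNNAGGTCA with at most 2 mismatches, was found in 1 of the 33 (3.03%), Acadvl, in 0 of the 10 and in 2.36% of all. The motifs differ in spacing and share no match here, and a match describes letters only.
Cat, chr2:103485154-103485403, minus strand: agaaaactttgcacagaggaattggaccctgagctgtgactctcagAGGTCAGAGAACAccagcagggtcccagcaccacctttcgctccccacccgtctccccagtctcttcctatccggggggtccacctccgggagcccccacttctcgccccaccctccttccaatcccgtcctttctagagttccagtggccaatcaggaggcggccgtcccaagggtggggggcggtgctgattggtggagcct
Hadh, chr3:131272102-131272351, minus strand: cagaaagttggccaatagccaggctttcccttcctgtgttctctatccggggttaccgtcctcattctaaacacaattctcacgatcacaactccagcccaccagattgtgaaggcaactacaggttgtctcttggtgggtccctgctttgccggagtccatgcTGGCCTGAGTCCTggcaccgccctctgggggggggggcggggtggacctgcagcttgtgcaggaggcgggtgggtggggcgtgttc
Tbc1d4, chr14:101609192-101609441, minus strand: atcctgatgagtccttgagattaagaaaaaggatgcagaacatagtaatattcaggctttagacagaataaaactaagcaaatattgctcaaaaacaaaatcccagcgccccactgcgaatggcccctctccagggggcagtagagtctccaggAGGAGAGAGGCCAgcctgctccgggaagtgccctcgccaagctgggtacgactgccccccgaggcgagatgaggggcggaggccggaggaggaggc
The match lay 204 to 192 bases before the start in Cat, 96 to 84 bases before it in Tbc1d4 and, on the opposite strand, 86 to 74 bases before it in Hadh.

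Sterol export and lipid remodelling genes known as LXR targets rose in part. Abca1, which exports cholesterol to lipoproteins, went from 563 to 1294, 2.30-fold, with a log2 of 1.202 (SE 0.19, adjusted p 3.37e-07) in the authors' deposited table. Srebf1, the transcription factor of fatty acid synthesis, went from 729 to 1467, a log2 of 1.01 (SE 0.16, adjusted p 7.87e-07) there. Lpcat3, which places unsaturated chains in phospholipids, rose by 0.58 in the authors' deposited table. Of the 12 measured members of the list, 3 rose and 6 had an unadjusted p under 0.05 on the higher side, with a median of 0.20. The exporter Abcg1 had 0.97 (SE 0.28, adjusted p 0.215) and Mylip, which marks the LDL receptor for breakdown, 0.67 (adjusted p 0.314) in the authors' deposited table. Scarb1, the receptor for high density lipoprotein, stood in no list and rose by 0.63 there.

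In the lipogenesis list, 13 of 19 measured members were positive, the median was 0.15 and Srebf1 and Scd2 rose. Scd2, a stearoyl-CoA desaturase, went from 645 to 1063, a log2 of 0.72 (SE 0.13, adjusted p 2.52e-05) in the authors' deposited table. Scd1, another desaturase, had a larger log2 of 1.07 with an SE of 0.63 there and was not called. Acacb, the carboxylase that makes the malonyl-CoA known to limit the carnitine shuttle, had 0.25 (adjusted p 0.285) in the authors' deposited table. Cholesterol synthesis and uptake genes had no called member among 19, with a median of -0.11 and 7 positive values. On the lower side 2 had an unadjusted p under 0.05, against 2.73% over all genes. Triglyceride synthesis genes had no called member among 12, with 3 on each side at an unadjusted p under 0.05, and Agpat2 and Agpat1, which act at the same step, had 0.53 and -0.23 in the authors' deposited table.

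Among genes of carbohydrate and ketone use, 3 enzymes fell. Pcx, pyruvate carboxylase, which feeds carbon into the TCA cycle, went from 1038 to 729, a log2 of -0.51 (SE 0.08, adjusted p 3.0e-06) in the authors' deposited table. Oxct1, the enzyme with which muscle activates ketone bodies, went from 16267 to 11976, a log2 of -0.44 (SE 0.09, adjusted p 0.00128) there. Ldhb, the lactate dehydrogenase subunit of oxidative muscle, fell by 0.21 on the log2 scale (adjusted p 0.0353) in the authors' deposited table, and the sum with its copy Ldhb-ps also had -0.21. Of the 20 measured glycolysis genes, 2 were positive, 1 fell and 9 had an unadjusted p under 0.05 on the lower side, with a median of -0.25. Gapdh had -0.38 (adjusted p 0.285), Pkm -0.28 (adjusted p 0.395), Aldoa -0.46 and Eno3 -0.48 in the authors' deposited table, none of them called. TCA cycle genes had no called member among 17 and a median of 0.02. On the higher side 2 had an unadjusted p under 0.05, against 2.9% over all genes. Glycogen genes had no called member among 18 and a median of -0.11. At such a p 3 stood on the lower side, against 2.73% over all genes.

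Tbc1d4, the Rab GTPase-activating protein that holds back the glucose transporter GLUT4 until insulin acts, rose from 2103 to 2829, a log2 of 0.43 (SE 0.10, adjusted p 0.006) in the authors' deposited table. Slc2a4, which encodes GLUT4, had -0.19 (SE 0.07, adjusted p 1.0) there. Rragd, a Rag GTPase that reports amino acids to the kinase mTORC1, fell from 4447 to 3492 with a log2 of -0.35. In the list of 23 insulin and glucose uptake genes these were the called members, 1 in each direction, with a median of -0.05.

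**Figure D3:**
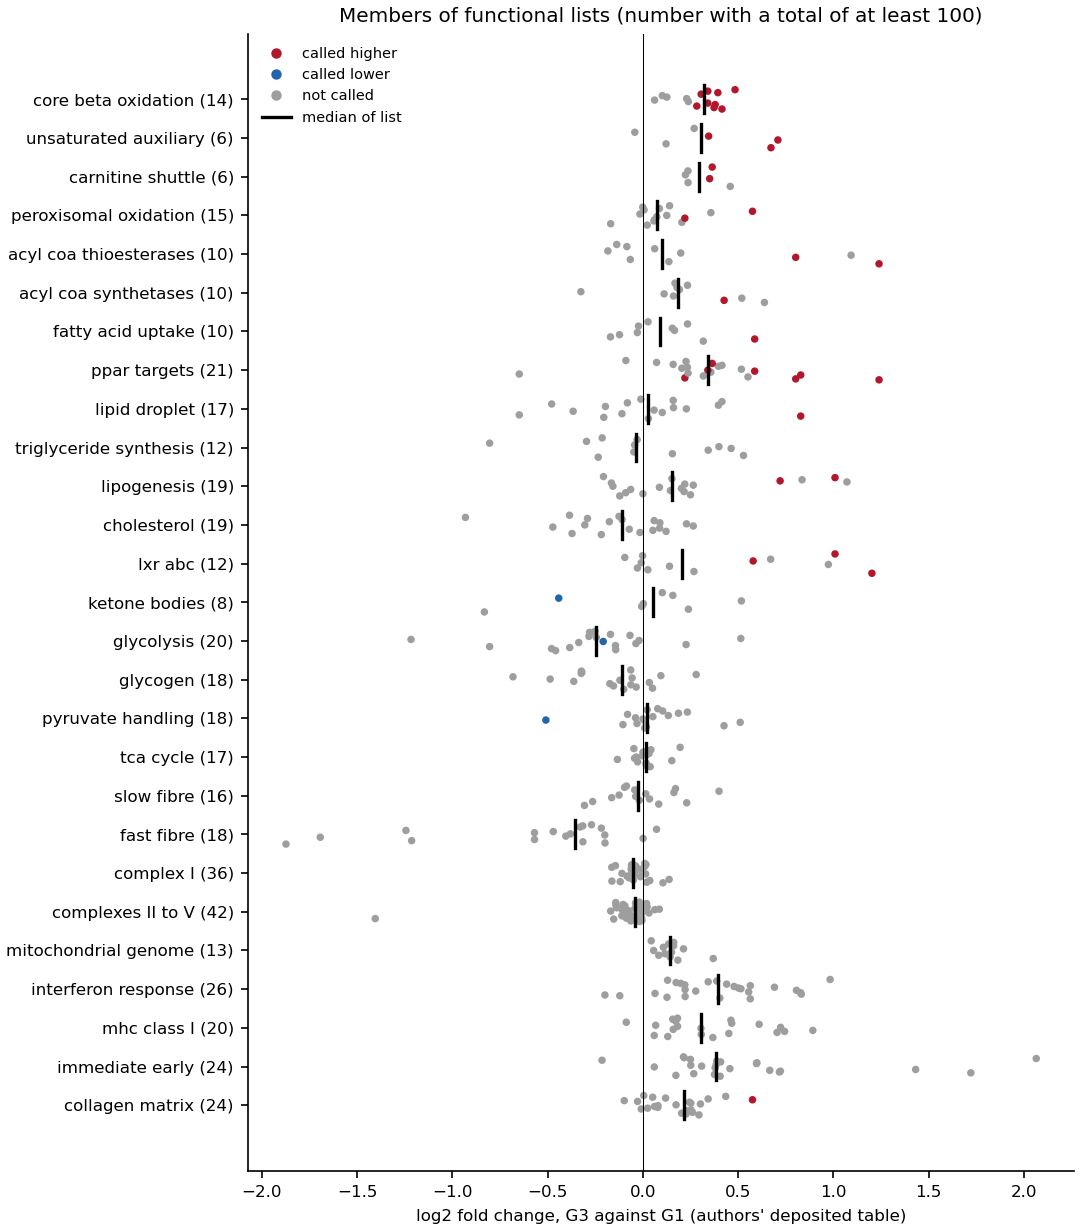
Log2 fold change of G3 against G1 in the authors' deposited table (x axis) for members of 27 functional lists (y axis, number of members with a total of at least 100 in brackets), where each point is a gene and the bar is the median of the list. The 14 genes of the mitochondrial spiral all lie right of 0, 9 of them called, while the fast fibre and glycolysis genes lie mostly left of 0 with 1 called.

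The contractile and mitochondrial machinery showed no called member in most lists. The 18 fast fibre genes had 2 positive values and a median of -0.35, and 9 had an unadjusted p under 0.05 on the lower side. Myl1, a fast light chain, had -0.40 (adjusted p 0.51) and Tnni2, fast troponin I, -0.33 (adjusted p 0.625) in the authors' deposited table. The 16 slow fibre genes had a median of -0.03, with 0 at an unadjusted p under 0.05. Of the myosin heavy chain level per length, the slow Myh7 made up 24.9% in G1 and 29.1% in G3, Myh2 42.99% and 49.1%, Myh1 25.3% and 19.4%, and the fastest, Myh4, 6.85% and 2.41%. None of these 4 was called, and Myh4 had a log2 of -1.69 with an SE of 1.77 in the authors' deposited table. How the fibre genes bear on the glycolysis values was not tested.

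Subunits of respiratory complex I had a median of -0.05 over 36 genes, with 8 positive, and those of complexes II to V one of -0.04 over 42 genes, with 9 positive. The 13 messages of the mitochondrial genome were all positive with a median of 0.14, and mt-Co1 had 0.14 (SE 0.07, adjusted p 1.0) in the authors' deposited table. Regulators of mitochondrial biogenesis and genes of mitochondrial fusion and fission had medians of 0.00, over 19 and 18 genes. None of these 5 lists had a called member. On the lower side, 2 genes of complex I, 1 of complexes II to V and 1 regulator had an unadjusted p under 0.05. On the higher side, 2 genes of the mitochondrial genome did. Over all genes the shares at such a p were 2.73% on the lower side and 2.9% on the higher side. In the list of 25 solute carriers, Slc25a20 was the called one. Called genes of mitochondrial proteins outside the lists were Tmem65, an inner membrane protein, with 0.38 and Vwa8, a mitochondrial ATPase, with 0.40 in the authors' deposited table.

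Membrane excitability genes held one of the largest rises and one of the largest falls. Chrna2, a nicotinic acetylcholine receptor subunit, went from 173 in G1 to 413 in G3, 2.39-fold, a log2 of 1.26 (SE 0.18, adjusted p 1.33e-08) in the authors' deposited table. It was the largest of the 49 rises. Chrna2 (chr14:66135039-66152948, GRCm38) lies close to Ephx2 (chr14:66084374-66124500), which also rose. A link between the 2 rises was not tested. Of 17 measured members of the list for the neuromuscular junction, Chrna2 was the called one, and the median was -0.02. The muscle receptor subunit Chrne had -0.39 (SE 0.21) and Utrn, utrophin, 0.41 (adjusted p 0.144) in the authors' deposited table. Of 21 potassium channel genes, 1 rose and 1 fell, with a median of 0.01. Kcnc4 fell from 345 to 148, by 1.23 on the log2 scale (SE 0.27) in the authors' deposited table. Kcnc1, of the same channel family as Kcnc4, had -0.35 (adjusted p 0.989) there.

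The 5 falls of -1 or less were of genes with modelled levels between 45.8 and 345 normalised reads per library in G1. Cyp2e1, a cytochrome P450 that oxidises ethanol and small molecules, went from 337 to 66.2, a log2 of -2.35 (SE 0.55, adjusted p 0.0148) in the authors' deposited table. Cyp2f2, of the same superfamily, had -1.03 (adjusted p 1.0) there. Of the 13 measured adipocyte markers, which are given here because fat tissue also expresses Cyp2e1, 3 were positive, the median was -0.20 and 3 had an unadjusted p under 0.05 on the lower side. Their summed level was 49496 in G1 and 54635 in G3, most of it Car3, which slow muscle also makes, at 31197 and 37855. Cfd, which encodes adipsin, went from 737 to 301, a log2 of -1.29 (adjusted p 0.798) in the authors' deposited table, and the part of fat tissue in the value of Cyp2e1 was not tested.

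Mettl21e, a lysine methyltransferase of skeletal muscle, went from 75.7 to 18.0, a log2 of -2.07 (SE 0.41, adjusted p 8.44e-04) in the authors' deposited table. Dupd1, a dual specificity phosphatase, fell by 0.72, Slc15a5, a solute carrier, by 1.08 and Tuba4a, an alpha tubulin, by 0.34 on the log2 scale there. The noncoding 8430426J06Rik fell from 45.8 to 13.7, and its log2 of -1.75 and that of -0.69 of the predicted gene Gm50194 complete the 12 falls of the authors' deposited table.

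The remaining rises spanned matrix, membrane and metabolic genes. Lum, the collagen-binding proteoglycan lumican, rose by 0.58, Smoc2, a matrix protein that binds calcium, by 0.50 and Hmcn2, a hemicentin of basement membranes, by 0.43 in the authors' deposited table. The adjusted p of Hmcn2 was 0.0119 there and 0.0586 once trends on GC content, length and total were removed. Of 24 measured collagen and matrix genes 21 were positive, with a median of 0.21 that was 0.13 once those trends were removed, and Lum was the called one. The 12 fibroblast markers had a median of 0.12 with 9 positive and a summed level of 16607 in G1 and 18574 in G3, and the 10 tendon markers a median of 0.21 with summed levels of 8591 and 10336.5. The part of these cells in the matrix values was not tested. Psat1, of serine synthesis, rose by 0.86, Alad, of heme synthesis, by 0.52, Impa2, an inositol monophosphatase, by 0.70 and Plbd1, a phospholipase B-like protein, by 0.38 in the authors' deposited table. Rab15, a small GTPase, rose by 0.86, Reep6, of the endoplasmic reticulum, by 0.80, Nkain1, which binds the sodium pump, by 0.67 and Stom, stomatin, by 0.54 there. The predicted gene BC048679 rose from 402 to 856, a log2 of 1.09 in the authors' deposited table.

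In several stress and immune lists most members were positive while none was called. Interferon response genes were positive in 24 of 26, with a median of 0.40 and 4 at an unadjusted p under 0.05 on the higher side. Ifit1, an antiviral protein, had 0.83 (SE 0.40, adjusted p 1.0) in the authors' deposited table. Genes of MHC class I and antigen processing were positive in 19 of 20, with a median of 0.31 and 5 at such a p, and H2-Q4 had 0.70 (SE 0.23, adjusted p 0.46) there. Immediate early genes, which respond to stimuli within minutes, were positive in 23 of 24 with a median of 0.39 and 3 at such a p, and Egr1 had 1.72 with an SE of 0.63 (adjusted p 0.826) in the authors' deposited table. Ribosomal and proteasome genes had medians of -0.04 over 50 and -0.02 over 31 genes, and circadian clock genes one of 0.05 over 19.

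The markers of skeletal muscle were at high levels, with Acta1, skeletal alpha actin, at 544423 in G1 and 532141 in G3, and the 12 muscle markers had a median of -0.01. Over the 20 endothelial markers the median was 0.04 and the summed level 28414 in G1 and 30759 in G3. The 14 macrophage markers had a median of -0.06, with summed levels of 2626 and 2523, and the 5 erythroid markers measured a median of 0.02. The 12 Schwann cell markers had a median of -0.21 with 4 positive. Neutrophil and lymphocyte markers had 0 members with a total of at least 100, with summed levels of 9.76 and 41.0 in G1 and 17.6 and 45.4 in G3. Of all marker genes Lum was the called one.

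**Figure D4:**
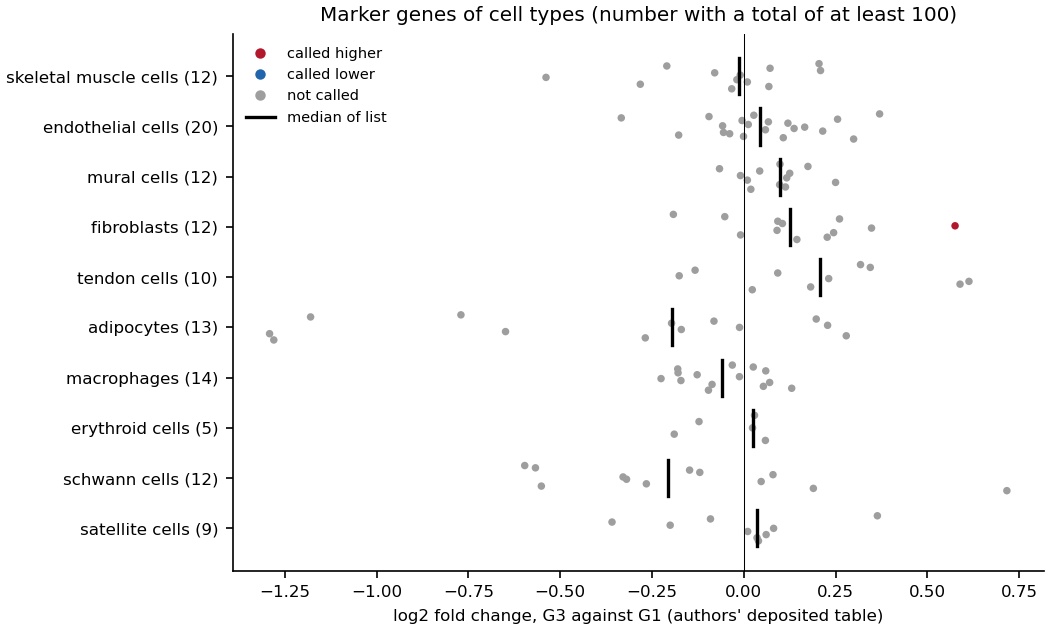
Log2 fold change of G3 against G1 in the authors' deposited table (x axis) for marker genes of 10 cell types (y axis, number of markers with a total of at least 100 in brackets), where each point is a gene and the bar is the median of the list. Medians lie between -0.21 (Schwann cells) and 0.21 (tendon cells), and Lum among the fibroblast markers is the called gene.

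Whether a change was particular to G3 against G1 was asked of G4 against G2, which shares no library with it. There the authors called 200 of the 14539 genes given an adjusted p (1.38%), 149 higher and 51 lower. The adjusted p of G3 against G1 was taken over all 28997 genes, so the counts of both rest on unlike sets. Adjusted over genes with a total of at least 100, G3 against G1 had 53 called higher and 15 lower. Of the 49 genes that rose in G3 against G1, 41 also rose in G4 against G2, which is 83.7% of the 49 and 27.5% of the 149. Of the 12 that fell, 4 also fell, 33.3% of the 12 and 7.84% of the 51, namely Pcx, Oxct1, Slc15a5 and Ldhb. The sign was the same in 47 of the 49 and in 12 of the 12. The implied SE of many called genes was close in both comparisons, as in Decr1 (0.0580 and 0.0582) and Hadhb (0.0635 and 0.0636). The p-values of both may thus share an estimate of spread, and the overlap is not an independent replication. The 61 were selected on their values in G3 against G1, so their sizes in both are set side by side and no order is read from them. Decr1 had 0.62 in the authors' deposited table for G4 against G2, and the difference of -0.06 had a 95% interval from -0.22 to 0.10. Hadhb had 0.50 there, with a difference of 0.01 (95% interval -0.16 to 0.19). Lists were not tested for a difference. In G4 against G2 the mitochondrial spiral had a median of 0.36 and fast fibre genes one of -0.18, the signs of G3 against G1. Glycolysis genes had 0.01 with 10 of 20 positive, against -0.25 and 2 positive in G3 against G1. Complex I genes had 0.06 with 33 of 36 positive, against -0.05 and 8 positive. Adipocyte markers had 0.23, against -0.20.

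The test of the difference between both comparisons called 1 of 15494 genes (0.00645%), a pseudogene on chromosome Y that was not among the 61, while 638 genes had an unadjusted p under 0.05, 9 of the 61 among them. Tbc1d4 had the smallest adjusted p of the 61, 0.376. It had -0.10 in the authors' deposited table for G4 against G2, so that the difference was -0.53 with a 95% interval from -0.79 to -0.26. Hmcn2 had -0.05 there, with a difference of -0.48 (-0.75 to -0.20), and Smoc2 had 0.10, with a difference of -0.40 (-0.70 to -0.10). Scd2 had a difference of -0.45 (-0.80 to -0.10) and Lum one of -0.41 (-0.78 to -0.03). Among the falls, Cyp2e1 had -0.52 in the authors' deposited table for G4 against G2, with a difference of 1.83 (0.29 to 3.36), 8430426J06Rik one of 1.33 (0.34 to 2.33) and Gm50194 one of 0.58 (0.14 to 1.01). These intervals leave out 0 before adjustment, and none of the 9 differences passed after adjustment over all genes tested.

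**Figure D5:**
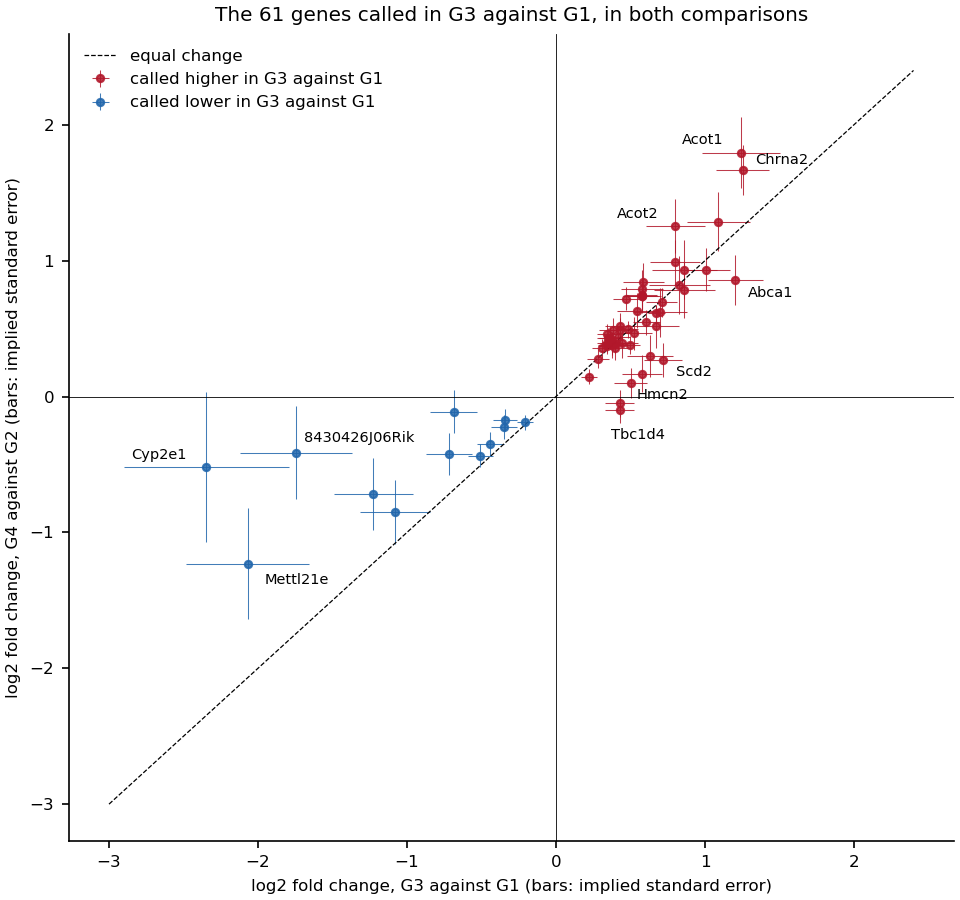
Log2 fold change of the 61 called genes in G3 against G1 (x axis) and in G4 against G2 (y axis), each point a gene with its implied SE as bars and the dashed line marking equal values. Most rises (red) lie near the line, Tbc1d4 and Hmcn2 lie just below 0 on the y axis, and the 12 falls (blue) lie below 0 on both axes.

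Just past the threshold lay Rrm1, a ribonucleotide reductase subunit, with -0.34 (adjusted p 0.0642), 2310065F04Rik with -1.88 (adjusted p 0.0648), A530016L24Rik with 0.81 (adjusted p 0.0864), Ldhb-ps with -0.20 and Syt9, a synaptotagmin, with 1.19 (adjusted p 0.088 for each) in the authors' deposited table. Just inside it lay Acadm (adjusted p 0.0464) and Rragd (adjusted p 0.0454).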

How the data were processed

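Per the labels' protocols, a KAPA kit for stranded mRNA made the libraries of the soleus of 12 mice. The submitters' processing notes name edgeR, RSEM 1.2.15 and Bowtie2 2.1.0 with the builds mm10 and GRCm38, and give no role or order. The authors' 4 deposited tables hold, per the file headers, a total (a signal), a p-value with its step-up adjustment, a signed fold (a ratio) and its log2. The header gives no normalisation for the total, which was read from its lowest values as normalised reads summed over 12 libraries. The sources used here do not give the tool behind the p-values. The tables hold no value per library, so the planned quasi-likelihood test of edgeR was not run and the authors' p-values were used.

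Implied standard errors are the log2 over the normal z of its p-value. G2 against G1, which lists 15652 genes with log2 of 0 or below, was rebuilt from the other 3 tables for the modelled levels (checked on 7792 listed genes). Differences between G4 against G2 and G3 against G1 were tested with a two-sided normal test, Benjamini-Hochberg adjusted over 15494 genes (numpy 2.4.6, pandas 2.3.3, scipy 1.17.1, Python 3.11.15), and the test was tried on simulated data. Coordinates come from GENCODE M21 on GRCm38, which held the symbols (98.0% of those with a total of at least 100), and levels per kilobase use the longest transcript. Called genes are named, except a few results not reported here, with at most 4 uncalled members of a list by smallest p, the 3 most abundant cell type markers, and the 5 genes just past the threshold. Members, lists and the total of at least 100 were chosen with earlier results of these data known. Alternatives were the adjustment set, other thresholds, a fold minimum of 1.5, centring and removing trends on GC content, length and total.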

Additional observations from a re-analysis of the deposited data

Results flagged for a closer look

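Gm20775, an unprocessed pseudogene on chromosome Y (10641257 to 10643107, GRCm38), was the 1 gene whose change differed between the comparisons by the test of the difference. Its log2 was 2.82 (SE 0.85) for G3 over G1 and -3.91 (SE 1.14) for G4 over G2 in the authors' deposited tables, a difference of -6.73 (SE 1.43, adjusted p 0.0357). Its modelled levels were 35.0 normalised reads per library in G3 and 4.94 in G1, and 1.13 in G4 and 16.9 in G2, from a total of 174 over the 12 libraries, and a pseudogene can share reads with its copies. Adjusted over all listed genes, the difference had an adjusted p of 0.0567.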

How the results depend on the processing

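The tables hold no value per library, so leaving out each replicate was not run, and no paired analysis was possible because the tables carry no replicate and the labels give the groups no shared numbers. The 49 genes called higher became 31 at an adjusted p under 0.01 and 18 with a fold of at least 1.5, and the 12 called lower became 7 with that fold. The 1 called difference became 0 over genes with a total of at least 1000 and 0 over all listed genes. Under the other settings the counts stayed within 1.5 times. Removing trends on GC content, length and total, which took 3.32% of the variance, left 58 of 59 called genes with a value past the threshold, and Hmcn2 had an adjusted p of 0.0586. Hadhb-ps and Gm50194 have no such value. Medians of the 60 lists with a value moved by less than their median SE under each setting. Removing the trends moved several printed medians by over 1.5 times. Those of collagen and matrix genes went from 0.21 to 0.13 and of erythroid markers from 0.02 to 0.09. Endothelial markers went from 0.04 to 0.07 and insulin genes from -0.05 to -0.07. Medians near 0 also moved as much, such as those of cytosolic ribosomal genes (-0.037 to -0.013) and muscle markers (-0.014 to -0.031). Those of neuromuscular junction genes (-0.02 to 0.005) and potassium channels (0.01 to -0.0015) changed sign. Depth limits what can be seen of genes such as Nox1. Each group holds 3 libraries, and the implied SE of a gene may draw on the spread in other groups than G3 and G1 as well.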
